A study of Arabidopsis thaliana with 24 samples.

Results

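Expression in the Arabidopsis thaliana root epidermis was compared between arrays labelled as a cpc ttg2 double mutant and arrays of the lines labelled with each mutation alone, to find genes at which these labels did not combine additively. The TTG2 signal went against the double mutant label, as described below. For each gene the difference between the arrays labelled cpc ttg2 and the cpc arrays was set against the difference between the ttg2 arrays and a baseline, and a gene was taken as non-additive where these log2 differences disagreed, at a Benjamini-Hochberg (BH) adjusted p under 0.05. This held for 143 of 21440 genes, not counting TTG2 itself. The disagreement is called the interaction. A positive interaction means that the level in the arrays labelled cpc ttg2 was higher than the sum of the separate effects, and a negative one that it was lower.

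The data were 24 Affymetrix arrays of 8 lines, with 3 biological replicates per line. Of these lines, 7 had a single mutant allele (cpc-1, ttg2-1, egl3-1, gl3-1, myb23-1, try-82 or wer-1), and the remaining one is labelled cpc-1 ttg2-1. All 8 lines carried WER::GFP, a green fluorescent reporter under the promoter of WER (WEREWOLF), active in young epidermal and lateral root cap cells. Seedlings were 5 days old, the root was taken to about 2 mm behind its tip, and total RNA came from fluorescent cells collected by sorting, so a sample holds root cap cells as well as epidermis. A wild type was not analysed here. The baseline was therefore the mean of the 5 line means of egl3, gl3, myb23, try and wer, which keep intact CPC and TTG2 but are mutants themselves.

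In the root epidermis, a complex of the MYB factors WER or MYB23, the bHLH factors GL3 or EGL3 and the WD40 protein TTG1 promotes the non-hair fate and switches on GL2, a homeodomain factor that represses hair formation. The same complex activates CPC, TRY and ETC1, small single-repeat MYB proteins that move to or act in neighbouring cells and compete for the bHLH partner, which leads to the hair fate. TTG2 is a WRKY factor expressed with GL2 in non-hair cells and is known for its role in trichomes, seed coat and mucilage. CPC and TTG2 thus lie downstream of 1 complex, and a comparison with a line that carries both mutations asks whether their effects add.

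The mutated genes were checked against the labels first. TTG2 was low on the ttg2 arrays, at 4.46, 3.86 and 4.72 on the log2 scale. It was not low on the arrays labelled cpc ttg2, which gave 8.60, 8.52 and 7.62. The cpc arrays gave 7.62, 7.41 and 6.75, and before rounding all 3 arrays labelled cpc ttg2 stood above all 21 others. The TTG2 signal thus goes against that label, and its own interaction was 3.24 ± 0.39 (SE, BH-adjusted p = 0.000131). Which part of the transcript the probes cover is not given in the sources used here, so the genotype of these arrays was not settled, and they are called by their label throughout. CPC gave 9.98 ± 0.21 (SD, n = 3) on the arrays labelled cpc ttg2 and 9.88 ± 0.47 (SD, n = 3) on the cpc arrays, with 9.85 ± 0.71 (SD, n = 3) in wer and means of 10.65 to 10.92 in the other lines. Its level thus did not set the lines labelled with cpc-1 apart from all others. No baseline line checked had its own mutated gene at the lowest level. TRY was highest in try, where its 3 arrays (10.71 ± 0.55, SD, n = 3) stood above all 21 others. EGL3 was at 7.36 ± 0.85 (SD, n = 3) in egl3 and at 7.03 to 7.59 in the other baseline lines, WER at 10.99 ± 0.36 (SD, n = 3) in wer and MYB23 at 7.40 ± 0.16 (SD, n = 3) in myb23, all within the range of the other line means. GL3 was not analysed here. An allele can leave the transcript level unchanged or raised, so these levels check the labels only in part.

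Several other measures moved with the arrays labelled cpc ttg2. The numbers in their sample descriptions, whose meaning is not given, were all higher than those of the other arrays that have one, so anything these numbers stand for cannot be told apart from the line. Their medians, 6.47 to 6.52, were the lowest of the 24 arrays. Their 25S ribosomal RNA control averaged 11.1 against 8.84 in cpc, and the 3′ minus 5′ difference of the actin control averaged 5.79 against 4.98, both within or near the range of single arrays of other lines (up to 11.3 and 6.09). The mean of 18 ground tissue markers was 5.23 to 5.56 on these arrays and at most 5.09 on the other 21, and that of 19 stele markers was 5.09 to 5.18 against at most 5.04. The stele mean includes APL, a called gene, and SHR is on both lists, so these means are not fully separate. The mean of 10 lateral root cap markers was 10.1 to 10.3, within the range of the other arrays, 9.46 to 10.7. In bulk samples, fewer cells of a type and less RNA per cell cannot be told apart, and the part of any of these measures in the results was not tested. The mean correlation with arrays of other lines was lowest for replicate 3 of cpc, at 0.924, and replicate 3 of the line labelled cpc ttg2, at 0.901. Without that pair 87 genes were called, 50 higher and 37 lower, of which 61 were among the 143, and all 143 kept their sign.

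Of the 143 genes, 82 were higher than additive and 61 were lower. With 21440 genes tested, 0.667% were called in either direction, 0.382% higher and 0.285% lower, and 2749 genes (12.8%) had an unadjusted p under 0.05. Centring each array on its median raised the median interaction of all genes from -0.0038 to 0.13 and moved the split to 160 higher and 58 lower, that is from 57.3% to 73.4% higher. All 143 genes kept their sign, but this tests nothing. Centring shifts every interaction by the same amount, which is smaller than the smallest member, so no sign could change. The interactions ran in size from 0.84 to 6.87 among the higher genes, with a median of 2.24, and from 0.88 to 5.43 among the lower, with a median of -2.02. Over all genes the 5th and 95th percentiles were -1.1 and 0.93. The last genes inside the threshold were AT2G24420 at 1.24 (BH-adjusted p = 0.0484) and SD2-5 at 1.64 (BH-adjusted p = 0.0492), and the first outside were AT5G56260 at 1.54 (BH-adjusted p = 0.0520) and AT1G68920 at -1.61 (BH-adjusted p = 0.0532). The 143 entries held 135 distinct patterns of values, because 15 entries shared all 24 values with another entry.

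**Figure D1:**
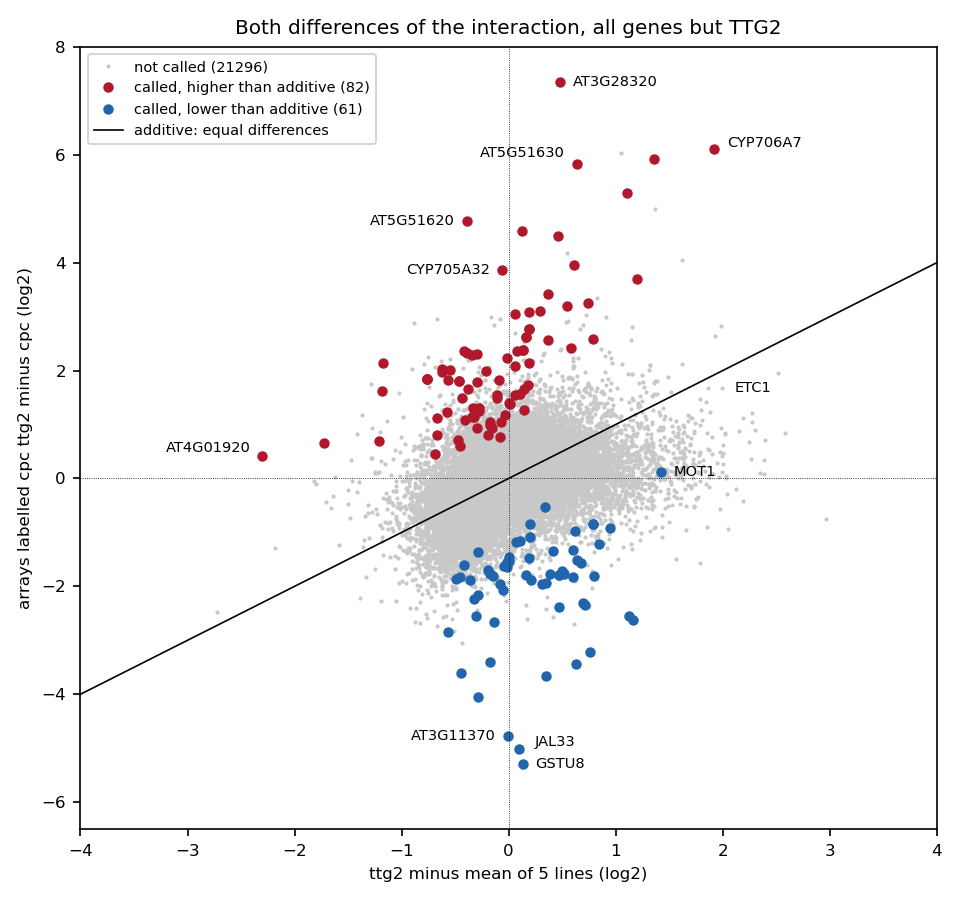
Each point is a gene; the horizontal axis is the ttg2 mean minus the mean of 5 lines and the vertical axis the mean of the arrays labelled cpc ttg2 minus the cpc mean, both log2. The 82 genes higher than additive lie above the diagonal of equal differences and the 61 lower genes below it, most of them near 0 on the horizontal axis and far from 0 on the vertical one, and ETC1 lies close to the diagonal.

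The disagreement came mainly from one of the differences. The rule used both of them, so the following counts describe the members and test nothing. In the comparison of the arrays labelled cpc ttg2 with cpc, 9.1% of all genes were called, 3.79% higher and 5.3% lower, and 135 of the 143 were among them. In the comparison of ttg2 with the 5 lines, 0.182% of all genes were called, 0.121% higher and 0.0606% lower, and 5 of the 143 were among them. For 137 genes the difference from cpc was the larger one in size. The signs of the differences were opposite for 86 genes, but no gene was called in both with opposite signs. The 9 genes called in both differences all had the same sign in each, and TTG2 was not among them. The 3 arrays labelled cpc ttg2 did not overlap the 3 cpc arrays in 138 genes (96.5%, against 25.3% of all genes).

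In the largest set the arrays labelled cpc ttg2 stood apart from all 21 other arrays, above them in 45 genes and below them in 39. Over all genes, 826 (3.85%) stood above and 1250 (5.83%) below in the same way. GSTU8, a tau class glutathione transferase, was the gene with the largest fall below the additive level. It read 6.38, 6.17 and 6.15 on the arrays labelled cpc ttg2, 11.79, 11.27 and 11.53 on the cpc arrays, 11.00, 11.09 and 11.17 on the ttg2 arrays, and 10.52 to 11.50 on the 15 baseline arrays. Every other line thus held GSTU8 near the same level, and the arrays labelled cpc ttg2 sat far below with no overlap. The interaction was -5.43 ± 0.27 (SE, BH-adjusted p = 2.03e-10), a level 43.1-fold below the additive one.

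JAL33, a jacalin-related lectin, followed the same pattern. Its levels were 5.86, 6.38 and 5.27 on the arrays labelled cpc ttg2, 10.72, 10.72 and 11.10 in cpc, and 10.64, 10.78 and 10.21 in ttg2. The interaction was -5.11 ± 0.47 (SE, BH-adjusted p = 2.35e-06). The single lines did not differ here by more than 1.49 between the lowest and the highest baseline line, and none came near the low group. ACLA-2, a subunit of ATP citrate lyase, which makes cytosolic acetyl-CoA, read 8.18, 7.39 and 7.20 against 10.77, 10.89 and 11.41 in cpc, and its interaction was -4.06 ± 0.35 (SE, BH-adjusted p = 9.47e-07).

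Other genes fell to low readings on the arrays labelled cpc ttg2. AT3G11370 read 3.70, 3.86 and 3.38 there and 8.11 to 8.71 in cpc, with an interaction of -4.77 ± 0.43 (SE). VAMP728, a SNARE protein of vesicle fusion, read 3.3, 3.05 and 2.75 there and 6.27 to 7.07 in cpc, with an interaction of -3.16 ± 0.46 (SE). AT2G40010 read 3.31, 3.05 and 2.75 there and 6.51 to 7.76 in cpc, with an interaction of -3.77 ± 0.37 (SE). Detection calls were not used, so it is unknown whether readings near 3 stand above background. ZW9 at -3.22, AT1G54260 at -4.0, AT1G65950 at -2.53, AT3G48460 at -3.06 and LEA7, a late embryogenesis abundant protein, at -2.86 had all 3 of these arrays below the other 21 as well. AT1G53980, at -3.98, did not, since egl3 was as low there, with a mean of 2.84 against 2.97, and without the pair of arrays that stood apart it was not called, at -3.36 (BH-adjusted p = 0.0528).

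Among the higher genes the arrays labelled cpc ttg2 stood alone in the same way. AT3G28320 read 11.91, 12.18 and 10.88 on them, 5.01, 3.73 and 4.19 in cpc, 5.63, 6.26 and 6.17 in ttg2, and 4.09 to 8.03 on the baseline arrays. Its interaction, 6.87 ± 0.72 (SE, BH-adjusted p = 1.53e-05), was the largest of all, a level 117-fold above the additive one. The baseline lines were not level for this gene, with means from 4.49 in myb23 to 7.13 in egl3, but no array of another line reached the readings of this group. CYP705A32, a cytochrome P450, was at 2.91 to 3.74 on all 21 other arrays and at 7.93, 7.05 and 6.39 on the arrays labelled cpc ttg2, and its interaction was 3.92 ± 0.33 (SE, BH-adjusted p = 8.13e-07). AT2G14900 read 8.09, 7.84 and 6.89 against 5.09, 5.15 and 5.71 in cpc, and its interaction was 2.63 ± 0.44 (SE).

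**Figure D2:**
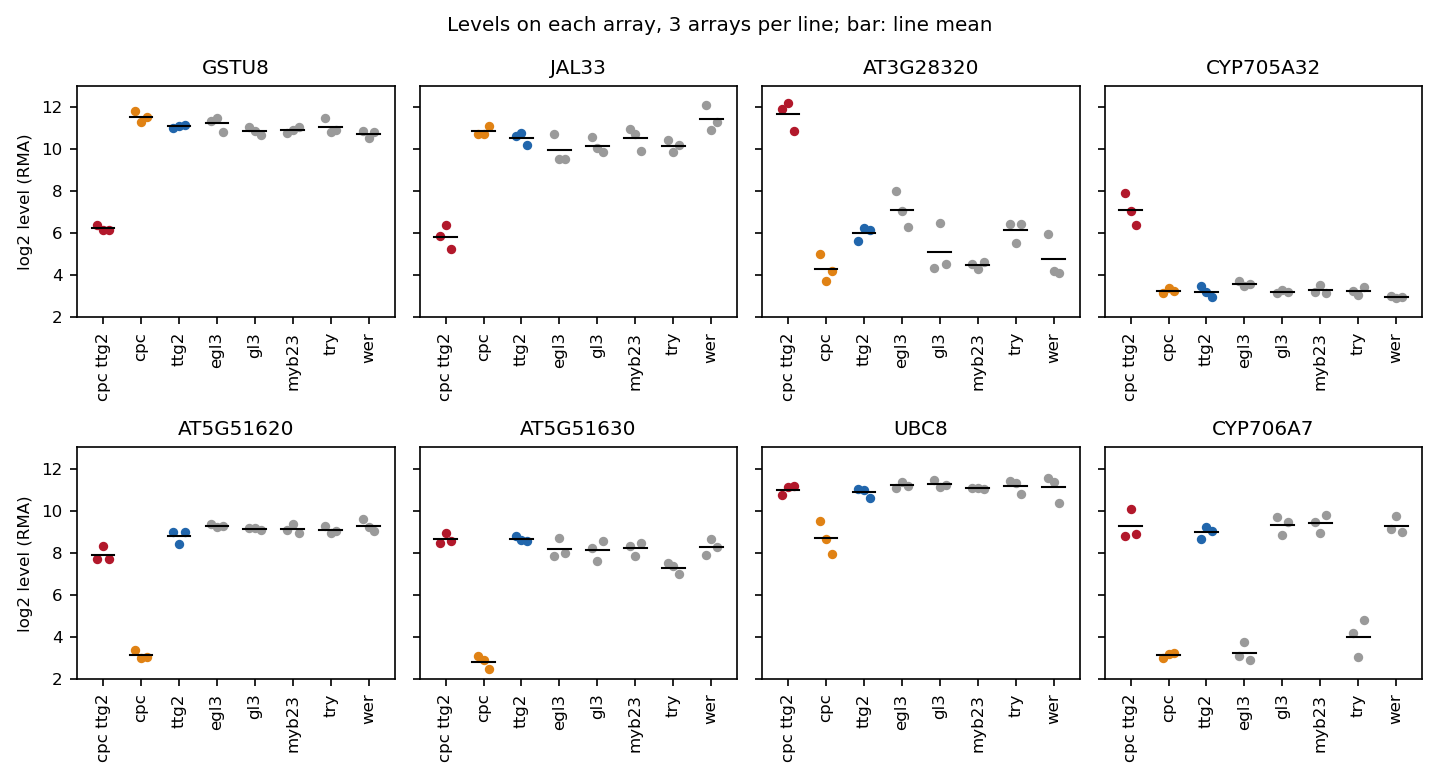
Log2 RMA levels of 8 genes on each of the 24 arrays, with dots for arrays and a bar for each line mean; the name cpc ttg2 on the axis is the label of those arrays. The arrays labelled cpc ttg2 stand apart for GSTU8, JAL33, AT3G28320 and CYP705A32, the cpc arrays stand apart for AT5G51620, AT5G51630 and UBC8, and cpc is low together with egl3 and try for CYP706A7.

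In other genes it was the cpc arrays that stood apart, below all 21 others in 11 genes and above them in 3 (over all genes 52 and 30), while the arrays labelled cpc ttg2 read more like the lines without cpc-1. AT5G51620 was at 3.36, 3.02 and 3.06 in cpc, at 7.72, 8.30 and 7.71 on the arrays labelled cpc ttg2, at 8.98, 8.41 and 9.0 in ttg2, and at 8.94 to 9.59 on the baseline arrays. All arrays but those of cpc were high, the arrays labelled cpc ttg2 included. The interaction was 5.15 ± 0.27 (SE, BH-adjusted p = 2.7e-10), a 35.5-fold departure.

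Its neighbour AT5G51630, the next measured locus, was at 3.1, 2.90 and 2.48 in cpc and at 8.45, 8.96 and 8.58 on the arrays labelled cpc ttg2, with an interaction of 5.2 ± 0.35 (SE, BH-adjusted p = 3.26e-08). UBC8, a ubiquitin-conjugating enzyme, read 9.53, 8.64 and 7.94 in cpc and 10.37 to 11.55 on the other 21 arrays, with an interaction of 2.60 ± 0.41 (SE, BH-adjusted p = 0.00294). AT5G43730 read 3.05, 2.58 and 2.71 in cpc and 4.32, 5.83 and 5.30 on the arrays labelled cpc ttg2, with an interaction of 2.78 ± 0.40 (SE). The lines thus split with cpc on one side for each of these genes.

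The other genes with cpc below all arrays, named after their values were seen, were AT5G43520 at 4.17, CML43, a calmodulin-like calcium sensor, at 2.72, AT4G14610 at 2.24, AT5G35320 at 2.19, AT5G53150 at 2.03, AT5G48770 at 1.92 and WRKY19 at 1.46. In AT5G35320 the arrays labelled cpc ttg2 were also above all others, so it is counted in both sets. Of these 11 genes, 9 lie on chromosome 5 and 2 on chromosome 4, which hold 22.9% and 14.8% of the measured genes. Of the 52 genes with cpc below all others, called or not, 29 lie on chromosome 5 and 7 on chromosome 4. The 3 genes with cpc above all other arrays, named in the same way, were AT3G29430 at -3.79, AT5G44470 at -2.21 and AT5G41310 at -0.88. AT5G41310 read only 3.69 to 3.84 in cpc and 2.88 to 3.48 on the other arrays, and whether it stands above background is unknown.

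In a further group the baseline lines themselves differed, so that the interaction depended on which of them were averaged. For 15 of the 143 genes the 5 baseline line means spanned more than the interaction, 13 higher and 2 lower. Of the 15, 8 lie on chromosome 4, which holds 14.8% of the measured genes. CYP706A7, a cytochrome P450, read 2.98, 3.18 and 3.25 in cpc, 2.88 to 3.74 in egl3 and 3.03 to 4.81 in try, but 8.67 to 10.07 in the other 5 lines, the arrays labelled cpc ttg2 among them. Its interaction was 4.19 ± 0.51 (SE, BH-adjusted p = 0.000131) against the mean of 5 lines, and 0.37 (BH-adjusted p = 0.851) against egl3 alone and 1.15 (BH-adjusted p = 0.461) against try alone.

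AT4G15390 was low in cpc (3.24 to 4.71) and in try (3.80 to 4.32) and read 8.46, 9.12 and 8.15 on the arrays labelled cpc ttg2. The interaction was 4.04 ± 0.50 (SE, BH-adjusted p = 0.000171), and 0.38 (BH-adjusted p = 0.837) against try alone. AT4G14980, at 3.35 ± 0.46 (SE), and AT5G26270, at 4.56 ± 0.80 (SE), were low in cpc and try as well, and against try alone they gave 0.43 and 1.34, neither called. In these genes cpc and try were on the low side and the arrays labelled cpc ttg2 on the high side, with intermediate readings in AT4G15390 for egl3 (5.94 to 7.21) and in AT5G26270 for gl3, whose arrays ran from 4.01 to 7.46. AT5G26270 was not called without the pair of arrays that stood apart, at 4.36 (BH-adjusted p = 0.0549). AT1G69800, at 2.64 ± 0.44 (SE), is not among the 15, but its baseline means also split, with 8.91 in egl3 and 8.95 in try and 7.13 to 7.28 in gl3, myb23 and wer.

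Few members were called in the ttg2 arm. The 5 genes that were also called in the comparison of ttg2 with the 5 lines, named after their values were seen, were CYP706A7, AT4G13860, AT4G01920, AT4G03480 and MOT1. For CYP706A7 the difference from cpc was the larger one, but its interaction depended on the baseline lines, as given above. It was 6.12 above cpc on the arrays labelled cpc ttg2 and 1.92 above the 5 lines in ttg2, with egl3 and try low in that baseline. MOT1, a molybdate transporter, read 4.6, 5.16 and 5.08 in ttg2 and 3.1 to 4.55 on the other 21 arrays. It was 1.42 above the 5 lines in ttg2, and on the arrays labelled cpc ttg2 it was 0.12 above cpc. Its interaction, -1.30 ± 0.29 (SE, BH-adjusted p = 0.0470), was called in 8 of the 24 runs that left out 1 array.

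AT4G01920 read 5.36, 2.62 and 3.97 in ttg2 and 2.88 to 3.40 in egl3, but 6.51 to 7.79 in the other 6 lines. Its interaction was 2.72 ± 0.57 (SE, BH-adjusted p = 0.0296), and -0.50 (BH-adjusted p = 0.817) with egl3 alone as the baseline. AT4G03480 had the same pair of low lines, with means of 3.39 in ttg2 and 2.99 in egl3 and of 5.37 to 6.5 elsewhere, and its interaction was 2.38 ± 0.54 (SE, BH-adjusted p = 0.0473), called in 5 of 24 such runs and not without the pair of arrays that stood apart, at 2.34 (BH-adjusted p = 0.115). The 5 genes called in neither difference, named after their values were seen, were CYP89A5 at -1.87, WIT1 at 1.15, AT2G24580 at 1.47, AT5G41660 at 1.90 and RCI3 at 2.80. CYP89A5 and AT5G41660 are among the 15 genes whose baseline line means spanned more than the interaction. For CYP89A5 the mean was 5.68 in egl3 and 10.16 to 11.27 in the other baseline lines, so its interaction depended on which lines were averaged.

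The members were unevenly placed on the chromosomes, which the rule did not use. Chromosomes 1 and 3 held 46 of the 61 lower genes (75.4%) and 45.7% of the measured genes. Chromosome 3 held 40 members among 4262 measured genes (0.939%), chromosome 1 held 37 among 5530 (0.669%), chromosome 2 held 21 among 3493 (0.601%), chromosome 4 held 18 among 3171 (0.568%) and chromosome 5 held 22 among 4904 (0.449%). On chromosomes 4 and 5, 15 of 18 and 18 of 22 members were higher.

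Within chromosomes the members lay in stretches. In bins of 200 measured genes in locus order, 47 of 109 bins held no member and 25 held 3 or more, a minimum chosen after the data were seen. A run of 7 neighbouring bins on chromosome 1, from AT1G50500 to AT1G70000, held 27 of that chromosome's 37 members among 1400 genes (1.93%), 10 higher and 17 lower. A run of 5 bins on chromosome 3, from AT3G07660 to AT3G19340, held 20 members among 1000 genes (2%), GSTU8 and JAL33 included, with 18 distinct patterns of values. A second run on that chromosome, from AT3G21560 to AT3G26380, held 8 members among 400 genes, 4 higher and 4 lower. A run on chromosome 2, from AT2G07070 to AT2G16680, held 7 members among 400 genes, all higher, of which AT2G07724, AT2G07715, AT2G07695 and AT2G07671 shared their values with mitochondrial entries. A run of 2 bins on chromosome 5, from AT5G40760 to AT5G45810, held 9 members among 400 genes (2.25%), and a run of 2 bins on chromosome 4, from AT4G12070 to AT4G16745, held 7 (1.75%), all higher. Neighbours moved in opposite ways as well as together. Among 4 adjacent measured loci on chromosome 1, ATHB13, a homeodomain-leucine zipper factor, was higher at 2.09 ± 0.43 (SE), AT1G69800 higher at 2.64 ± 0.44 (SE) and WRKY36 lower at -1.54 ± 0.26 (SE). Beside GSTU8, within 5 measured loci and named after their values were seen, AT3G09250 was lower at -1.59 ± 0.30 (SE) and LAC7, a laccase, higher at 1.65 ± 0.36 (SE). No cause of this placement was tested.

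**Figure D3:**
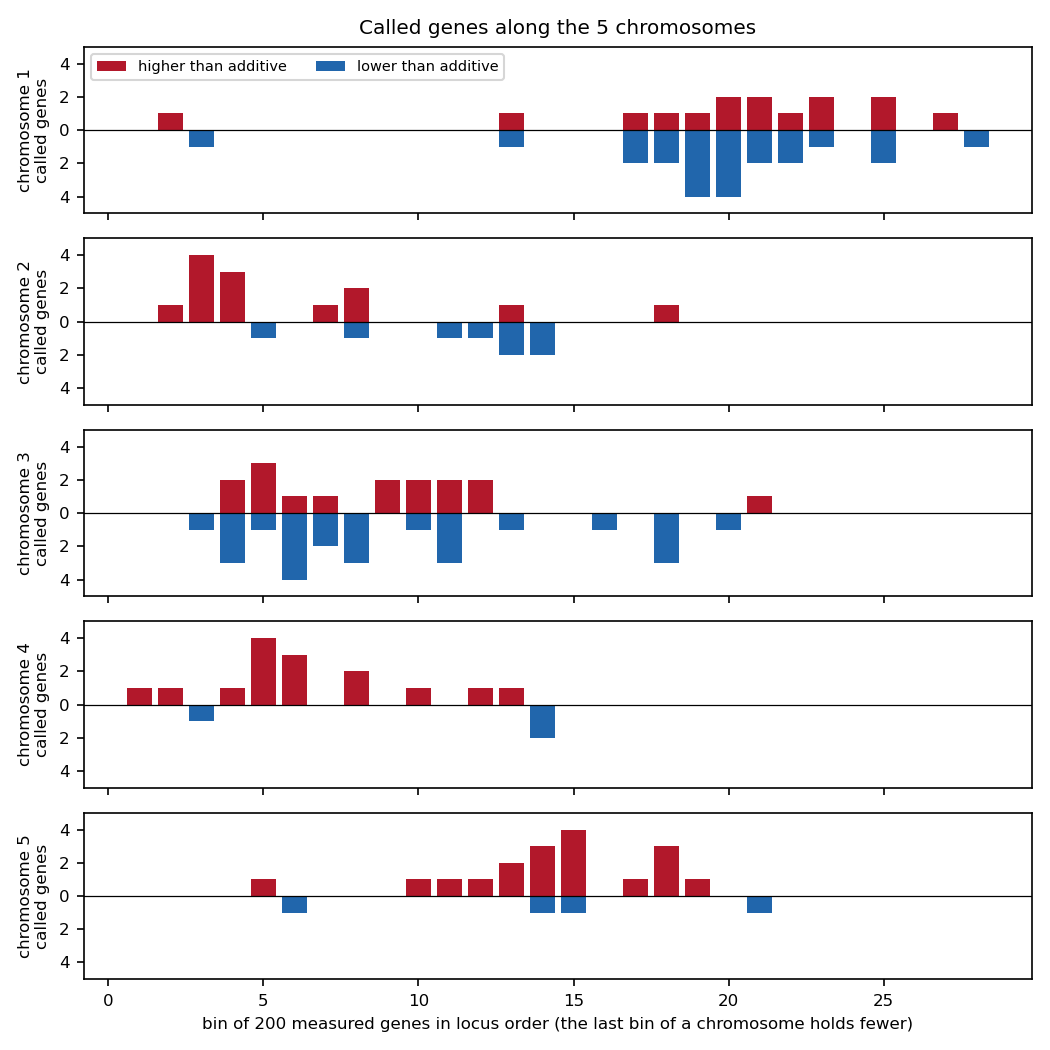
Called genes in bins of 200 measured genes in locus order on the 5 chromosomes, with bars upward for genes higher than additive and downward for lower ones. Members concentrate in a run of bins on chromosome 1, where 27 of 37 lie, in the first part of chromosome 3, and on chromosomes 4 and 5 mostly upward.

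Mitochondrially encoded genes contributed 5 of 77 measured (6.49%), all higher, against 0.382% of all genes called higher. They were ATMG00200, ATMG00560, ATMG01280, ATMG00040 and ATMG01080, with interactions from 2.24 to 2.60. For ATMG00040, ATMG01080 and AT2G07671 the baseline line means spanned more than the interaction, so it depended on which lines were averaged. Each shared all 24 values with an entry of a chromosome 2 locus, and ATMG00040 and ATMG01080 also with each other, so the mitochondrial and nuclear copies cannot be told apart. The mean of the 77 mitochondrial genes was 6.85 ± 0.45 (SD, n = 3) on the arrays labelled cpc ttg2 and 5.99 ± 1.09 (SD, n = 3) in cpc, which overlap.

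None of the 16 measured epidermal patterning genes was called, apart from TTG2 (limma, 0 at BH-adjusted p under 0.05, and 3 at an unadjusted p under 0.05). Over all genes the shares were 0.667% and 12.8%, so no call among 16 genes is near the general share and does not show that they were additive. Their median interaction was 0.01, beside -0.0038 over all genes. ETC1, one of the single-repeat MYB genes, was called in both differences with the same sign. It read 10.41, 10.03 and 10.25 on the arrays labelled cpc ttg2, 8.36, 8.76 and 8.53 in cpc, 9.35, 9.54 and 8.81 in ttg2, and 5.80 to 8.53 on the baseline arrays. ETC1 rose by 1.68 ± 0.44 (SE, BH-adjusted p = 0.0240) over cpc and by 1.99 ± 0.34 (SE, BH-adjusted p = 0.0191) over the 5 lines, with an interaction of -0.31 ± 0.56 (SE, BH-adjusted p = 0.844). The 95% interval of the interaction ran from -1.47 to 0.85, which leaves out the median members, 2.24 and -2.02, but not smaller departures.

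MYB23 had the largest interaction of these genes, 1.36 ± 0.48 (SE, BH-adjusted p = 0.216), with readings of 9.50, 9.50 and 8.85 on the arrays labelled cpc ttg2 and 8.36, 7.83 and 6.99 in cpc. The groups did not overlap, and the difference from cpc of 1.55 ± 0.38 (SE) was called (BH-adjusted p = 0.0176), while ttg2 was 0.19 ± 0.29 (SE) above the 5 lines. WER and TTG1 were lower than in cpc by the same call, at -0.83 ± 0.24 (SE) and -0.94 ± 0.22 (SE), with interactions of -0.57 and -0.69 that were not called. GL2, which the complex activates, gave 0.12 ± 0.59 (SE), and its 95% interval ran from -1.11 to 1.36. CPC gave 0.10, TRY -0.26, ETC2 -0.46, EGL3 0.11, MYC1 -0.40 and GL1 -0.70, none called. RHD6, a bHLH factor of hair initiation, gave 0.95 (BH-adjusted p = 0.369). The positional signalling genes SCM, JKD and QKY gave -0.07, 0.20 and 0.61, and PLDP1, a phospholipase D gene regulated by GL2, gave 0.28. GL3 and ETC3 were not analysed here.

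**Figure D4:**
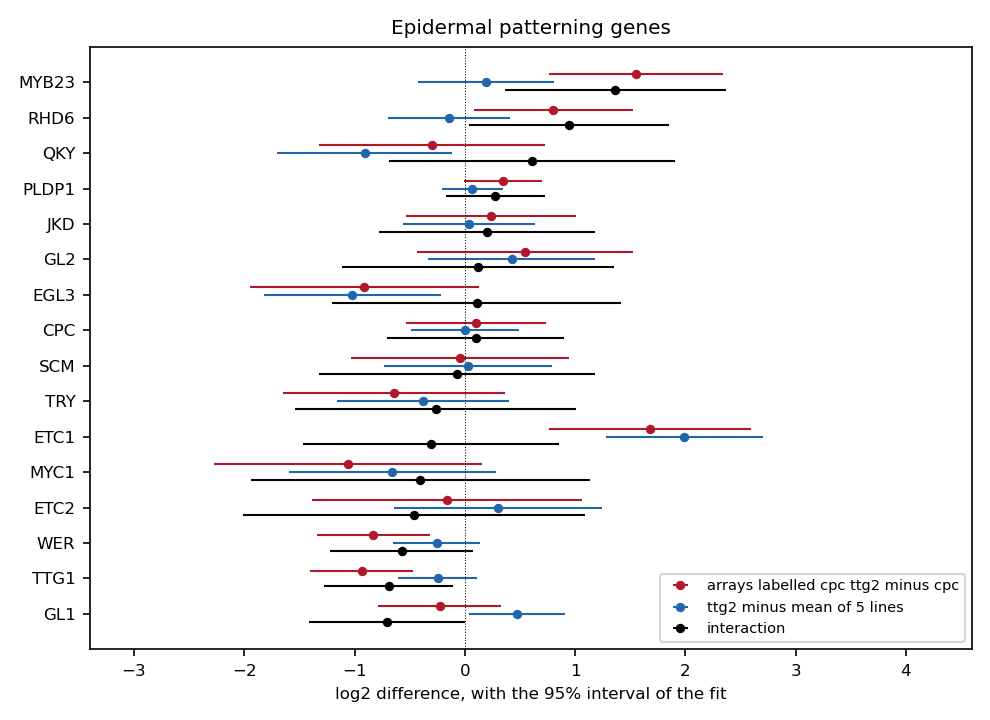
The interaction and its component differences for 16 epidermal patterning genes, on the log2 scale, with dots for the fitted difference and lines for its 95% interval. ETC1 has both differences well above 0 and an interaction near 0, and MYB23 has the largest interaction, 1.36, which was not called.

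Across the other 20 gene lists, 6 of 458 distinct genes were called (1.31%, against 0.667% of all genes), each named by rule. WRKY36 was the 1 of 47 WRKY factors, reading 9.35, 9.34 and 8.81 on the arrays labelled cpc ttg2 and 10.37 to 10.89 in cpc, with an interaction of -1.54 ± 0.26 (SE, BH-adjusted p = 0.00561), and -1.27 (BH-adjusted p = 0.0540) without the pair of arrays that stood apart. The family as a whole had a median interaction of -0.05, and WRKY19, above, is not on the list. GSTU8 was the 1 of 29 glutathione transferases, whose median was 0.25. The jasmonate, auxin, ethylene, iron, nutrient, flavonoid, unfolded protein, oxidative stress, photosynthesis and clock lists and the list of root hair regulators held no called member, with medians from -0.26 to 0.34.

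The heat shock list is named cytosolic but also holds HSP21, HSP23.6-MITO and regulators such as HSFA2. Its genes had interactions above 0 in 20 of 21 cases (21 with centred arrays and 19 after quantile normalisation), with a median of 0.86, but 1 was called. Against cpc, 8 of the 21 were called, all higher (3.79% of all genes were called higher). HSP90.1, a heat-induced chaperone, read 10.10, 9.94 and 9.83 on the arrays labelled cpc ttg2, 5.82, 7.80 and 7.09 in cpc and 7.61 to 8.34 in ttg2. The interaction was 2.99 ± 0.57 (SE, BH-adjusted p = 0.0154), and it was called in 23 of 24 runs that left out 1 array. Without the pair of arrays that stood apart it was 3.15 (BH-adjusted p = 0.0503). HSP101 at 2.64 (BH-adjusted p = 0.0837) and HSP17.6A at 3.15 (BH-adjusted p = 0.184) were not called. Cell cycle and replication genes lay above 0 in 3 of 30 cases, with centred and quantile-normalised arrays too, with a median of -0.73, and 1 was called. Against cpc, 11 of the 30 were called, all lower (5.3% of all genes were called lower). CYCD3;1, a D-type cyclin, read 8.32, 8.57 and 8.39 on the arrays labelled cpc ttg2 and 9.31 to 9.87 in cpc, with an interaction of -1.26 ± 0.25 (SE, BH-adjusted p = 0.0188).

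The lists that mark other cells held 1 called gene. APL, a MYB factor of phloem identity, read 4.76, 4.96 and 5.80 on the arrays labelled cpc ttg2 and 3.46 to 4.33 on the other 21, with an interaction of 1.58 ± 0.34 (SE, BH-adjusted p = 0.0364), called in 13 of 24 runs that left out 1 array and not without the pair of arrays that stood apart (1.20, BH-adjusted p = 0.146). The other 18 stele genes were not called, and the list's median was 0.22. The ground tissue list had no called gene and a median of 0.76, with 17 of 18 genes above 0, and the lateral root cap list none, with a median of -0.99 and all 10 genes below 0 (2 above 0 with centred arrays). The root hair cell wall list had none of 22 called and a median of -0.89, which was -1.55 without the pair of arrays that stood apart. NCED3, which makes the precursor of abscisic acid, read 7.78, 8.14 and 7.84 on the arrays labelled cpc ttg2 and 3.93 to 6.10 on the other 21, and its interaction was 1.85 ± 0.42 (SE, BH-adjusted p = 0.0470), called in 7 of 24 such runs and not without the pair (1.82, BH-adjusted p = 0.128). The marker means and RNA quality values of the arrays labelled cpc ttg2 are those given above, and their part in these lists was not tested.

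**Figure D5:**
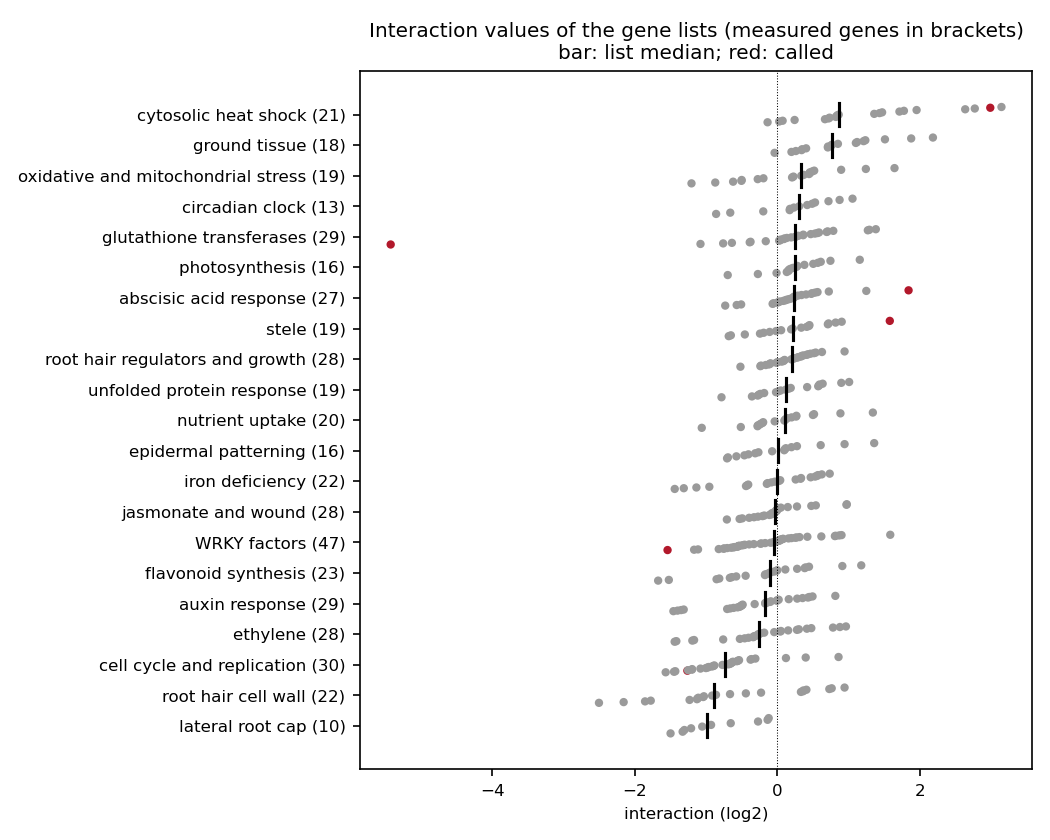
Interaction values on the log2 scale for the measured members of 21 gene lists, with a dot per gene, red where called, and a bar at the list median. Medians run from -0.99 for the lateral root cap list to 0.86 for the cytosolic heat shock list, and 6 genes are called, GSTU8 the farthest from 0.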

How the data were processed

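The authors deposited 1 table of log2 values for 24 arrays, and the submitters' processing notes name RMA (robust multi-array average) as the tool. The sources used here do not give the array type, the probe set definition or a software version. The deposited arrays do not share 1 distribution: their medians run from 6.47 to 6.91 and their interquartile ranges from 3.98 to 4.83. Of 21504 entries, 64 controls were left out of the tests, and 21440 genes remained. Gene symbols and locus order came from a RefSeq table of assembly TAIR10.1, in which 21222 codes matched and 218 did not. List genes are shown under the list's symbol.

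All 24 arrays entered 1 limma 3.58.1 fit in R 4.3.3 (lmFit, contrasts.fit, eBayes), with a coefficient for each line, and the interaction and both differences were taken as contrasts, 2-sided, with BH adjustment over 21440 genes and a threshold of 0.05. The deposited log2 values were used as they are. A level is given with its SD over 3 arrays and a difference with its fitted SE. Precision is limited by the number of arrays, and the p-values reflect only the spread between arrays, which the labels call biological replicates. Each gene had 1 estimate of spread, shared by all lines, also where some lines varied more than others. Figures were drawn with matplotlib 3.10.9. The code was tested on simulated data with 200 changed genes. It recovered 5%, 61.5% and 91% of changes of log2 size 1, 2 and 3. Of the calls, 9.09%, 6.11% and 9.90% were false, above the nominal threshold. A gene that was not called can thus still have a change of these smaller sizes.

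The members and gene lists were chosen with earlier results of these data known. Named were the 12 largest interactions per direction among genes called in each of 24 runs that left out 1 array, the 6 largest with opposite signs called in both differences (there were none), every measured patterning gene, and, for every other list, at most 3 called members in each direction; further genes are stated as named after their values were seen. A symbol that led to another gene in the table was replaced by its synonym for 5 list genes. Alternatives were a replicate block, median centring, quantile normalisation, a filter on genes with a mean under 5, an intensity trend with a robust prior, array weights, leaving out each array, other baselines, a fit of the compared groups only, unlogged line means, and, chosen after seeing the data, leaving out the pair of arrays that stood apart.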

Additional observations from a re-analysis of the deposited data

Results flagged for a closer look

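For each result below the difference between the 2 differences was itself tested, as the interaction in limma with BH adjustment over all genes. With 3 arrays per line, no line was tested for an array far from the others. The arrays labelled cpc ttg2 differed from the cpc arrays otherwise than the ttg2 arrays did from the 5 lines. This interaction was higher in 82 genes and lower in 61. The genotype of the arrays labelled cpc ttg2 was not settled, so an effect of the ttg2 mutation in a cpc background was not tested.

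Among the genes named by rule, the interaction was higher in AT3G28320 at 6.87, AT5G51630 at 5.2, AT5G51620 at 5.15, AT5G26270 at 4.56, CYP706A7 at 4.19, AT4G15390 at 4.04, CYP705A32 at 3.92, AT4G14980 at 3.35, HSP90.1 at 2.99, AT5G43730 at 2.78, AT1G69800 at 2.64, AT2G14900 at 2.63, UBC8 at 2.60, NCED3 at 1.85 and APL at 1.58. It was lower in GSTU8 at -5.43, JAL33 at -5.11, AT3G11370 at -4.77, ACLA-2 at -4.06, AT1G54260 at -4.0, AT1G53980 at -3.98, AT2G40010 at -3.77, ZW9 at -3.22, VAMP728 at -3.16, AT3G48460 at -3.06, LEA7 at -2.86, AT1G65950 at -2.53, WRKY36 at -1.54 and CYCD3;1 at -1.26. TTG2, the check of the label, gave 3.24.

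Among genes named after their values were seen, the interaction was higher in AT5G43520 at 4.17, AGL44 at 2.90, ERF38 at 2.81, RCI3 at 2.80, AT4G01920 at 2.72, CML43 at 2.72, AT4G13860 at 2.50, AT4G03480 at 2.38, AT4G14610 at 2.24, AT5G35320 at 2.19, ATHB13 at 2.09, AT5G53150 at 2.03, AT5G48770 at 1.92, AT5G41660 at 1.90, LAC7 at 1.65, CIP1 at 1.53, AT2G24580 at 1.47, WRKY19 at 1.46 and WIT1 at 1.15. It was lower in AT3G29430 at -3.79, CLE41 at -2.61, CYP90D1 at -2.29, AT5G44470 at -2.21, DMC1 at -1.95, XTH5 at -1.93, CYP89A5 at -1.87, MAD2 at -1.76, AT3G09250 at -1.59, ARPC3 at -1.46, MOT1 at -1.30 and AT5G41310 at -0.88.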

How the results depend on the processing

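All 143 genes kept their sign in all 24 runs without 1 array, and under the block, centring, quantile normalisation and array weights, but 48 were called in all 24 of those runs. Under centring and the block no sign could change. Centring shifts all genes alike by less than the smallest member, and the block leaves differences between complete lines as they are. The members were also chosen from these same values. The number called higher was 160 with centred arrays, 594 with array weights, 53 with try alone as baseline, 138 with wer alone, 50 without the pair of arrays that stood apart, and 28 to 107 when 1 array was left out. The number called lower was 441 with array weights, 38 with myb23 alone, 37 without that pair, and 32 to 99 when 1 array was left out. The lowest totals were 61 genes without cpc ttg2 replicate 2 and 67 without cpc replicate 2, and the highest was 206 without cpc replicate 1. Array weights did not converge, with a weight of 54.9 for try replicate 3, and the cause was not tested for the other settings.

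For cpc ttg2 minus cpc, 1950 genes became 5353 with array weights and 643 to 2981 with 1 array left out. In a fit of those groups only, 61 genes were called. That fit has fewer arrays and does not share its estimate of spread with the other lines. The mean correlation with arrays of the same line was 0.941 to 0.966 in cpc and 0.954 to 0.963 on the arrays labelled cpc ttg2. It was 0.955 to 0.991 in the remaining lines. Why the count fell was not tested. For ttg2 minus the mean of 5 lines, 39 genes became 25 with the filter on dim genes, 828 with array weights, 62 without egl3 and 87 without try in the baseline, 140, 17, 11, 201 and 131 with egl3, gl3, myb23, try and wer alone, 265 in a fit of those groups only, 282 without the pair, and 6 to 146 with 1 array left out.

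The replicate numbers were not taken to pair the arrays across all lines: 32 of 84 same-numbered pairs of different lines had deviations correlated above 0.1, and all 3 pairs did in 4 of 28 combinations of lines (cpc with wer, egl3 with wer, ttg2 with try and myb23 with try), but not for cpc ttg2 with cpc (-0.089 to 0.58). With the replicate number as a block, 92 genes were higher and 68 lower.

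Called genes reversed in AT4G13860 with try alone (-0.65) and AT4G01920 with egl3 alone (-0.50). Uncalled patterning genes reversed in CPC with wer alone (-0.70), TRY without wer (0.21) and with try alone (1.45), ETC1 with try alone (0.49), EGL3 with gl3 alone (-0.12), try alone (-0.15) and without the pair (-0.062), MYC1 with wer alone (0.056), GL2 without try (-0.030), with wer alone (-1.26) and without the pair (-0.15), SCM with centring (0.068), quantile normalisation (0.19), without wer (0.047), with myb23 alone (0.28) and try alone (0.15), JKD with try alone (-0.033) and QKY with wer alone (-0.020). With 1 array left out, CPC ran from -0.11 to 0.37, TRY from -0.44 to 0.065, ETC2 from -1.17 to 0.054, EGL3 from -0.43 to 0.48, GL2 from -0.39 to 0.50, SCM from -0.47 to 0.19, JKD from -0.15 to 0.55 and QKY from -0.012 to 1.1. Signal over background is unknown here, so small interactions of dim genes are not resolved.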

Other observations

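Further members with known roles, named after their values were seen, are given as values. AGL44 (ANR1), a MADS-box factor known for nitrate-dependent lateral root growth, averaged 9.72 on the arrays labelled cpc ttg2, 6.64 in cpc, 6.06 in ttg2 and 5.87 in the 5 lines, with an interaction of 2.90 ± 0.62 (SE, BH-adjusted p = 0.0333). ERF38, an ethylene response factor family member, averaged 8.13 against 5.02 in cpc, with 2.81 ± 0.63 (SE, BH-adjusted p = 0.0470). Neither was called without the pair of arrays that stood apart.

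On the lower side, CLE41, a peptide ligand of vascular development, averaged 5.98 against 7.80 in cpc and gave -2.61 ± 0.53 (SE, BH-adjusted p = 0.0238). CYP90D1, an enzyme of brassinosteroid synthesis, averaged 3.80 against 5.57 and gave -2.29 ± 0.45 (SE, BH-adjusted p = 0.0188). XTH5, a xyloglucan-modifying enzyme of the cell wall, gave -1.93 ± 0.40 (SE), ARPC3, a subunit of the actin-nucleating ARP2/3 complex, -1.46 ± 0.26 (SE), DMC1, a meiotic recombinase, -1.95 ± 0.42 (SE), and MAD2, a spindle checkpoint protein, -1.76 ± 0.39 (SE). Of these lower genes, CYP90D1 alone was still called without that pair. CIP1, a protein known to interact with COP1, was higher at 1.53 ± 0.25 (SE, BH-adjusted p = 0.00512) and lies near UBC8.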
